A study of Mus musculus with 18 samples.

Results

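Gene expression in untreated neural stem cells (NSCs) was compared between 2 amounts of the same RNA, 10 pg, which is about what a single cell holds, and 1 ng. The comparison used the 6 vehicle libraries of these inputs, chosen by the treatment and input in the column headers, of 18 libraries in the series. The cells were cultured from the dentate gyrus of adult C57Bl6J mice (6 to 9 weeks old) and used at passages 6 to 15, as the labels give them. They grew with epidermal growth factor and basic fibroblast growth factor and received vehicle (water by the labels, buffered saline by the study's methods) for 24 h. Each input had 3 libraries, from cultures F5 and F8 of the female line and M9 of the male line. Each line came from pooled animals, so F5 and F8 share a line. RNA was isolated from about 30000 cells per culture, with an RNA integrity number of 10, and diluted, so the 10 pg and 1 ng libraries of a culture are dilutions of 1 RNA sample. The vehicle libraries of 100 pg (3) and the libraries of cells given 500 µM hydrogen peroxide (H2O2) for 24 h (6 at the same inputs) served only as further values. The question was which classes of genes are no longer seen at 10 pg.

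NSCs of the dentate gyrus divide slowly or rest in the hippocampus, and give rise to granule neurons throughout life. Their identity rests on transcription factors, which bind DNA and set which genes are used, and on surface receptors such as Notch and the EGF and FGF receptors, which read signals from the niche. Transcripts of such regulators are usually scarcer than those of ribosomal, metabolic or cytoskeletal genes. The libraries were made by SMART-Seq, in which full-length cDNA is copied from polyadenylated RNA and amplified before sequencing. A transcript that no primer meets or that is lost before amplification leaves no read, however deep the library.

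Depth was alike at both inputs. The 1 ng libraries held 10032628 to 11946931 reads in genes and the 10 pg libraries 11502499 to 12362510. At 1 ng 24207 to 24535 genes had a read, and at 10 pg 13890 to 14002. Each input was normalized on its own by the authors, so levels were set on a common scale as CPM, the reads of a gene per 1000000 reads in genes. In the 10 pg libraries 3 reads were worth 0.243 to 0.261 CPM, which is the limit that a count of 0 allows, for counting error only, since amplified reads are not separate molecules. Marker lists summed to similar levels at both inputs. Genes of NSC and progenitor identity summed to 12107 to 12557 CPM at 1 ng and 11374 to 12525 CPM at 10 pg, quiescence genes to 3608 to 4239 CPM at 1 ng and 3541 to 4178 CPM at 10 pg, and genes of neuronal differentiation to 1276 to 1409.5 CPM at 1 ng and 1059 to 1422 CPM at 10 pg. Of other cell types, astrocyte genes summed to 1304 to 1597 CPM at 1 ng and 1164 to 1569 CPM at 10 pg, oligodendrocyte lineage genes to 2964 to 3182 CPM at 1 ng and 2639 to 3249 CPM at 10 pg, mostly Olig1, and endothelial and pericyte genes to 152 to 193 CPM at 1 ng and 105 to 206 CPM at 10 pg, nearly all Cspg4. Microglia genes summed to 32.3 to 40.3 CPM at 1 ng and 6.15 to 49.3 CPM at 10 pg, and genes of blood and skin to 20.1 to 22.2 CPM at 1 ng and 17.04 to 35.96 CPM at 10 pg. Across the 14561 genes tested, log2(CPM + 1) correlated at r = 0.982 to 0.989 among the 1 ng libraries and at 0.725 to 0.738 among the 10 pg libraries, which share protocol and depth.

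At 10 pg, 17.4% ± 0.388 (SD, n = 3) of the genes with at least 1 CPM in a culture's 1 ng library had no read in the 10 pg library of that culture. Cultures F5, F8 and M9 stood at 17.8, 17.2 and 17.1%, of 14682, 14748 and 14726 genes. The share followed the level at 1 ng. Of genes from 1 to under 5 CPM, 48.1% ± 0.419 had no read, and of those from 5 to under 20 CPM 23.4% ± 1.57. From 20 to under 50 CPM the share was 5.401% ± 0.718, from 50 to under 100 CPM 0.4602% ± 0.113, and of 2462 to 2509 genes per culture at 100 CPM or more none lacked a read. In the 100 pg libraries of the same cultures 1.83% ± 0.0581 of the genes had no read. The 3 H2O2 cultures, which are other RNA samples of the same lines, gave 19.3% ± 1.24 at 10 pg. With 3 pairs no 2-sided exact test can go below 0.25, so these shares are given with their spread and without a test.

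**Figure D1:**
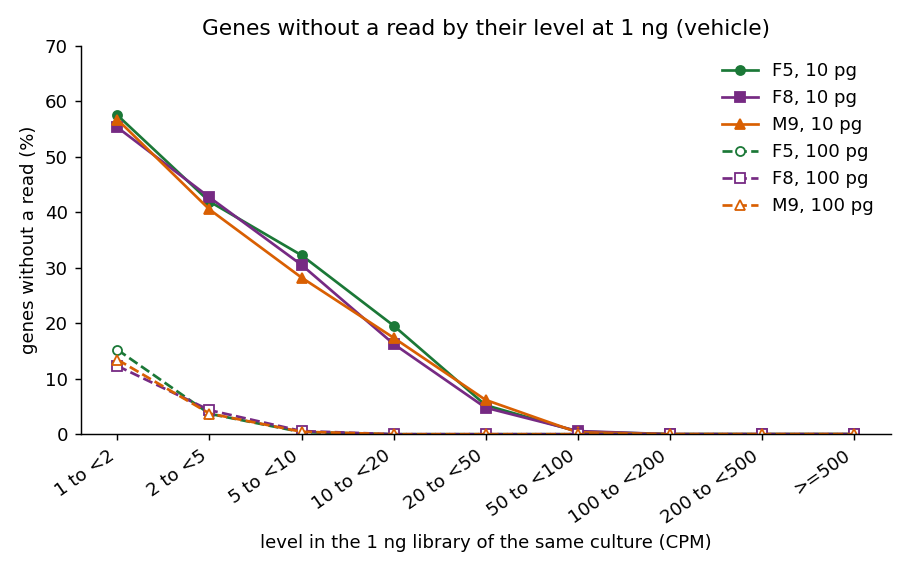
Share of genes without a read (y axis, %) by level in the 1 ng library of the same culture (x axis, CPM, uneven bins) for the 3 vehicle cultures at 10 pg (solid lines) and 100 pg (dashed lines). At 10 pg the cultures lie together and the share goes from 55.3 to 57.5% in the lowest bin to 0 from 100 CPM upward.

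Transcription factors and receptors lacked reads more often than genes as a whole. Of 670, 672 and 679 transcription factor genes with at least 1 CPM in F5, F8 and M9, 27.3, 26.8 and 27.2% had no read at 10 pg (mean 27.1% ± 0.287). Of 288, 278 and 278 receptor genes it was 34.4, 30.9 and 29.9% (mean 31.7% ± 2.36). In both classes every culture lay above its own share over all genes. Secreted ligands (41.1% ± 1.49, of 71 to 78 genes) and ion channels (48.3% ± 3.39, of 85 to 89 genes) lay higher still. At the other end, the 80 ribosomal protein genes with at least 1 CPM had reads in every 10 pg library. In the respiratory chain 1 of 80 genes, Cox6a2, lacked a read in 1 library. Among 37 proteasome genes Psmb8, a subunit of the immune form, alone lacked reads, in all 3 libraries. Of 56 mitosis genes, which carry cells through division, 4 lacked a read in 1 library each, Nuf2 in F5, Ttk and Ndc80 in F8 and Cdca5 in M9 (2.38% ± 1.03). Genes named here by class were picked after their values were seen. In the H2O2 cultures, the shares were 30.1% for transcription factors, 34.03% for receptors, 39.3% for ligands and 49.6% for ion channels, in the same order, and 10.7% for mitosis genes.

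**Figure D2:**
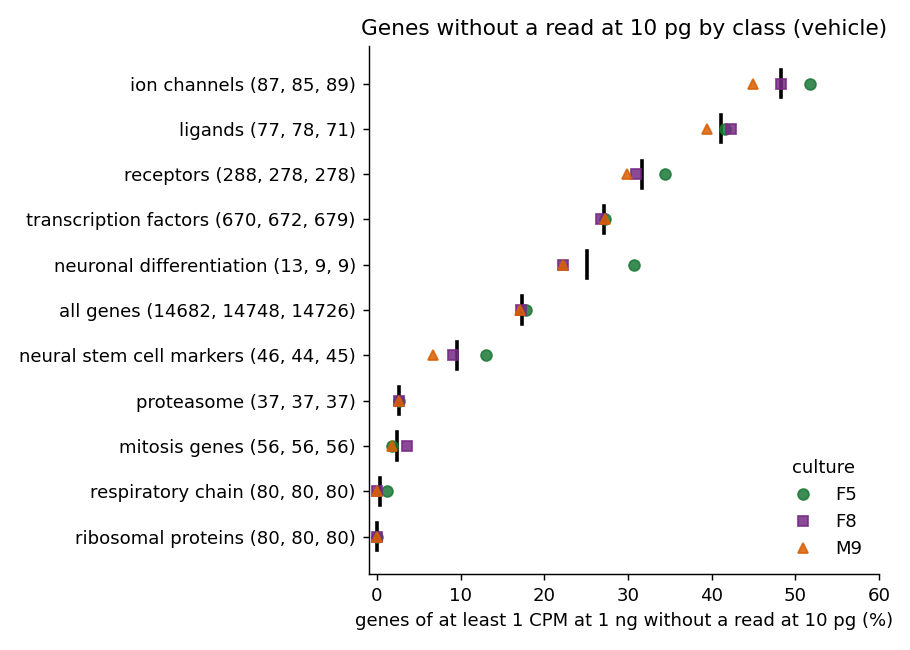
Share of genes with at least 1 CPM at 1 ng that had no read at 10 pg (x axis, %) by gene class (y axis), with the number of such genes in F5, F8 and M9 in brackets. Points are the 3 vehicle cultures and bars their means: all points of ion channels, ligands, receptors and transcription factors lie to the right of all points of all genes, and ribosomal proteins lie at 0.

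The classes differ in level. The median 1 ng level of genes with at least 1 CPM in all 3 libraries was 27.6 CPM over all genes, 14.3 CPM over transcription factors, 19.2 CPM over receptors and 195 CPM over ribosomal proteins. At like level the gap to protein-coding genes narrowed. Of genes from 1 to under 5 CPM, 61.98% ± 1.01 of protein-coding genes, 60.2% ± 2.38 of transcription factors and 72.4% ± 2.01 of receptors had no read. At that level ligands stood at 71.5% ± 5.15 and ion channels at 74.2% ± 6.15, so all 3 signalling classes lay above protein-coding genes by more than the spread and transcription factors did not. From 5 to under 20 CPM the shares were 27.5% ± 1.69, 30.95% ± 1.41 and 32.01% ± 10.7, and from 20 to under 50 CPM 5.704% ± 0.807, 5.66% ± 2.65 and 9.15% ± 1.04. Ion channels stood at 48.2% ± 7.48 from 5 to under 20 CPM. No transcription factor, receptor, ligand or ion channel gene at 100 CPM or more lacked a read.

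Reads per molecule also grow with transcript length. The median longest annotated transcript was 4909 nt for receptors, 3901 nt for transcription factors and 3522 nt for protein-coding genes. When genes were chosen by at least 1 CPM per kilobase of transcript instead, the share without a read was 14.4% ± 0.758 over all genes, 19.5% ± 1.02 over transcription factors and 14.7% ± 4.91 over receptors. On this scale receptors lay above all genes in F5 and below them in F8 and M9. Protein-coding genes alone stood at 11.3% ± 0.589, and receptors lay above these in F5 and F8 and below them in M9. From 2 to under 5 CPM per kilobase, transcription factors stood at 31.1, 25.1 and 25.7% in the cultures and protein-coding genes at 25.6, 24.3 and 24.4%, higher for the factors in each. From 10 to under 20 CPM per kilobase the factors had 0, 2.6 and 2.5% and protein-coding genes 2.38, 1.86 and 2.14%, with no one order. From 1 to under 2 CPM per kilobase the factors had 39.8, 42.5 and 46.9% and protein-coding genes 47.8, 46.3 and 41.96%. There the factors lay higher in M9 alone. From 5 to under 10 CPM per kilobase it was 10.4, 5.36 and 9.6% against 9.84, 9.27 and 10.2%, higher for the factors in F5 alone.

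Within the transcription factors the families differed. Ets factors had 4.44% ± 7.698 without a read (14 or 15 genes), Stat, Irf, NF-kB and Smad factors 10.7% ± 4.62 (24 to 26), Sox factors 12.4% ± 5.01 (10 or 11) and bZIP factors 15% ± 2.5 (40). Basic helix-loop-helix and Id factors were at 18.7% ± 2.71 (44 or 45). The highest shares were those of the numbered zinc-finger genes (30.9% ± 1.696, of 335 to 341), nuclear receptors (34.96% ± 2.53, of 27 or 28) and homeobox and Pax factors (35.01% ± 3.699, of 59 to 64). Nuclear receptors lay above homeobox factors in F5 and below them in F8 and M9. Between these groups lay forkhead factors (20.1%), Klf and Sp factors (21.4%) and the Nfi, Tead, Zic, Gli and E2f factors (27.1%). Median levels at 1 ng did not give the same order. Ets factors had the highest median, 60.6 CPM, and the lowest share. Forkhead factors had the lowest median, 10.4 CPM, close to the 10.5 CPM of homeobox and Pax factors, and a lower share than those. Helix-loop-helix and Id factors had a higher median, 41.5 CPM, than the Stat, Irf, NF-kB and Smad factors, 18.2 CPM, and also a higher share. At like level the large families differed less. From 5 to under 20 CPM, 27.2% ± 7.66 of homeobox and Pax factors and 27.5% ± 1.69 of protein-coding genes had no read. Numbered zinc-finger genes stood at 36.5% ± 2.71 there, above protein-coding genes in each culture. From 1 to under 5 CPM the 3 shares were 62.5, 61.98 and 61.9%. Smaller families held few genes per level.

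The most abundant factors were measured at 10 pg near their 1 ng level. Values of a gene are given in the order F5, F8 and M9. Olig1, a helix-loop-helix factor of the oligodendrocyte lineage, had 2658, 2579 and 2759 CPM at 1 ng and 2706, 2229 and 2889.9 CPM at 10 pg. Etv5, an Ets factor downstream of FGF signalling, had 1237, 1152 and 916 CPM at 1 ng and 1107, 1124 and 688 CPM at 10 pg, with M9 lowest at both inputs. Zeb1, a zinc-finger and homeobox repressor, had 359.7, 342 and 393 CPM at 1 ng and 358, 391 and 315 CPM at 10 pg. For all 3 genes the ranges of both inputs overlapped. Stat3, which carries cytokine signals to the nucleus, had 364, 321 and 284 CPM at 1 ng and 368, 235 and 173 CPM at 10 pg. Nfib, a nuclear factor I protein of glial development, had 308, 311 and 349.7 CPM at 1 ng and 362, 395 and 325 CPM at 10 pg. Their ranges overlapped too, with the F5 value of Stat3 almost equal at both inputs and M9 lowest. Foxm1, a forkhead factor that drives mitotic genes, had 119, 112 and 153 CPM at 1 ng and 17.03, 31.9 and 96.7 CPM at 10 pg (log2 difference −1.72, SE 0.47, adjusted p = 0.2104 by limma). Every 10 pg value of Foxm1 lay below every 1 ng value, which held for 17.8% of the 14561 genes tested, while the reverse order held for 6.76%. In H2O2 cultures Foxm1 had 6.45, 33.8 and 48.8 CPM at 1 ng and 7.1, 6.39 and 66.8 CPM at 10 pg. There only F8 was lower at 10 pg. Of the 34 genes that are the 2 most abundant of each transcription factor or receptor family, all had reads in every 10 pg library, 6 had all 10 pg libraries below, 3 had all above, and 25 overlapped.

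Some scarce factors had no read in any 10 pg library. Of 644 transcription factor genes with at least 1 CPM in all 3 1 ng libraries, 57 had no read in any 10 pg library, 86 lacked one in 2 libraries, 142 in 1, and 359 had reads in all 3. Over all 13893 such genes, 13.4% lacked a read in 1 library, 8.49% in 2 and 4.51% in all 3 (626 genes), and 73.6% had reads in all 3. Of the 57 factors 40 were numbered zinc-finger genes, of 327 with that level. Nuclear receptors gave 5 of 26, namely Nr2f2, Nr6a1, Nr4a2, Nr3c2 (the mineralocorticoid receptor) and Ppara (a sensor of fatty acids). No Sox, forkhead, Klf and Sp, Ets, or Stat, Irf, NF-kB and Smad factor of that level was missing from all 3 libraries. Factors at 0 in all 3 10 pg libraries included Zfp28 (14.2, 13.8 and 22.6 CPM at 1 ng) and Zfp324 (14.1, 13.3 and 16.99 CPM), both zinc-finger proteins, and Bach2 (5.68, 6.25 and 6.19 CPM), a bZIP repressor. They also included Nr2f2 (6.58, 5.36 and 2.76 CPM), Myb (5.88, 2.86 and 4.44 CPM), a factor of dividing progenitors, Ahr (5.18, 3.84 and 3.26 CPM), the receptor of aryl hydrocarbons, and Atf3 (2.49, 2.68 and 3.599 CPM), a stress-induced bZIP factor. All of these were below 23 CPM at 1 ng.

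Some regulators were read in a single 10 pg library, at times above their own 1 ng level. Kit, the stem cell factor receptor, had 23.9, 29.6 and 25.9 CPM at 1 ng and 0, 0 and 89.8 CPM at 10 pg, so M9 alone had it. Irx3, a homeobox factor, was read in F8 alone, with 5.58, 7.32 and 8.71 CPM at 1 ng and 0, 19.6 and 0 CPM at 10 pg. These genes were picked after their values were seen. The ratios that follow were taken only in libraries with a read, with values of 0 left out. That choice by itself raises the ratios of genes read in fewer libraries, so those of genes read in 1 and in 3 libraries are not alike. From 5 to under 20 CPM at 1 ng, 31 of 245 transcription factor genes were read in 1 of the 3 libraries, at a median of 1.97 times the 1 ng value of that culture, and 58.1% of them stood above it. Over all genes of that level read in 1 library (515) the median was 1.199 times and 56.5% stood above. The 8 receptors of that kind had a median of 1.27 times. From 1 to under 5 CPM the medians were 2.46 times for 52 factors, 1.84 times for 604 genes in all and 0.487 times for 21 receptors. At least 2-fold above stood 51.9% of these factors, 48.7% of these genes and 38.1% of these receptors. From 20 to under 50 CPM, the level of Kit, 60 genes were read in 1 library, at a median of 0.926 times. Genes of 5 to under 20 CPM with reads in all 3 libraries had medians of 1.04 times (99 factors) and 1.01 times (1871 genes).

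Receptor families spanned a similar range. Receptors of the Notch, Wnt, Hedgehog and TGF-beta families had 21.7% ± 4.64 without a read (30 or 31 genes), cytokine and immune receptors 23.2% ± 3.499 (33), guidance and adhesion receptors 27.8% ± 1.501 (66 to 70) and receptor tyrosine kinases 28.4% ± 6.87 (33 to 35). G protein-coupled receptors (39.6% ± 1.797, of 85) and ligand-gated channels (41.3% ± 7.94, of 28 to 34) lay highest. Of 257 receptor genes with at least 1 CPM in all 3 1 ng libraries, 151 had reads in all 3 10 pg libraries and 32 in none. Among the 27 ligand-gated channels 7 had no read in any.

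Abundant receptors were seen in every 10 pg library, as were all 69 with a mean of at least 50 CPM at 1 ng. Fgfr1, a receptor of the FGF in the medium, had 379, 411 and 330.5 CPM at 1 ng and 391, 463 and 222 CPM at 10 pg. Egfr, the EGF receptor, had 254, 196 and 302 CPM at 1 ng and 233, 146 and 458 CPM at 10 pg, and M9 was highest at both inputs. Ntrk2, the BDNF receptor, had 406, 457 and 456 CPM at 1 ng and 420.3, 402 and 458 CPM at 10 pg. Ranges overlapped for these 3 genes, and they did for Ednrb and Itgb1. Ednrb, an endothelin receptor, had 446, 507 and 472 CPM at 1 ng and 497, 468 and 419.9 CPM at 10 pg. Itgb1, an integrin subunit, had 1428, 1424 and 1240.2 CPM at 1 ng and 1103, 1261 and 1374 CPM at 10 pg. Ptprz1, a receptor phosphatase of NSCs and glia, had 1361, 1389.6 and 1653 CPM at 1 ng and 1179, 1221 and 1326 CPM at 10 pg. All 10 pg values of Ptprz1 lay below all 1 ng values. Notch1, a receptor that keeps NSCs undifferentiated, had 167, 212 and 204 CPM at 1 ng and 48.4, 203 and 187 CPM at 10 pg, so F5 alone was low. Bmpr1b, a BMP receptor with 25.1, 23.04 and 41.1 CPM at 1 ng and 0, 9.39 and 0 CPM at 10 pg, was the most abundant of its family to lack a read in more than 1 library (named after its values were seen). Of the 69 receptors, 19 had every 10 pg library below every 1 ng library (27.5%) and 1 had every library above. Of all 14561 genes tested, 17.8% lay below and 6.76% above in this way. Those genes start at a mean of 1 CPM, so the shares are not matched in level to the receptors.

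Fzd9, a Wnt receptor, was low at 10 pg in all 3 cultures. It was the most abundant of the Notch, Wnt, Hedgehog and TGF-beta families (chromosome 5, 135248938 to 135251230, minus strand, GRCm38), with 235, 309 and 312 CPM at 1 ng and 23.3, 18.1 and 90.6 CPM at 10 pg. The 10 pg values lay below all 1 ng values, with means of 285 ± 43.6 and 44.01 ± 40.4 CPM (SD, n = 3; log2 difference −3.02, SE 0.49, adjusted p = 0.08404 by limma). At 100 pg the same cultures gave 271, 291 and 272 CPM. The H2O2 cultures had 227, 237 and 186 CPM at 1 ng and 18.4, 26.1 and 10.3 CPM at 10 pg. Fzd7, a related Wnt receptor, had 4.88, 5 and 5.44 CPM at 1 ng and no read at 10 pg. Other receptors without a read in any 10 pg library were Epha7 (8.97, 7.14 and 5.61 CPM at 1 ng), an ephrin receptor, Cnr1 (5.08, 4.46 and 5.27 CPM), the cannabinoid receptor of neurons, Grik1 (5.88, 7.32 and 5.61 CPM), a kainate receptor subunit, and Il1r1 (6.18, 5.45 and 4.19 CPM), the interleukin 1 receptor. Sorl1, a sorting receptor with 9.37, 6.07 and 11.8 CPM at 1 ng, was also at 0 in all 3.

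In each culture the share of NSC markers without a read lay below that of all genes. Of the 46, 44 and 45 genes of the identity and quiescence lists with at least 1 CPM in F5, F8 and M9, 13.04, 9.09 and 6.67% lacked a read (mean 9.6% ± 3.22). Of 44 genes with at least 1 CPM in all 3 1 ng libraries, 35 had reads in all 3 10 pg libraries (79.5%, against 73.6% of all genes), 8 lacked one in 1 library, and Msi1 alone lacked reads in all 3. Their median 1 ng level was 87.4 CPM. From 1 to under 5 CPM 59.7% ± 19.7 of the markers had no read, where 61.98% ± 1.01 of protein-coding genes had none. Of the 25 with a mean of at least 50 CPM, 21 overlapped between inputs, 2 had all 10 pg values below and 2 all above, with 17.8% and 6.76% of all genes tested below and above. The genes tested start at a mean of 1 CPM, so those shares are not matched in level.

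Of 13 identity genes with a mean of at least 50 CPM at 1 ng, 9 had overlapping ranges at both inputs. In 2 of the 13 every 10 pg library lay below every 1 ng library, and in 2 every one lay above. Nes, the intermediate filament nestin, had 1870.3, 1827 and 1445 CPM at 1 ng and 1900.2, 1784 and 1650.3 CPM at 10 pg. Slc1a3, the glutamate transporter of radial glia, had 2372, 2839 and 3039 CPM at 1 ng and 1966, 2884 and 2839 CPM at 10 pg. Tnc, a matrix protein of the niche, had 2876, 2530.2 and 2035 CPM at 1 ng and 2401, 2146 and 1766 CPM at 10 pg, lower at 10 pg in each culture. For these 3 genes the ranges of both inputs overlapped. Fabp7, a fatty acid binding protein of radial glia, had 1359.9, 1421 and 1416 CPM at 1 ng and 1429, 1682 and 1799 CPM at 10 pg. Sox9, a factor of glia and NSCs, had 209, 191 and 204 CPM at 1 ng and 245, 251 and 300.2 CPM at 10 pg. Both genes had all 10 pg values above all 1 ng values. Pax6, a paired-box factor, had 23.1, 25.1 and 30.5 CPM at 1 ng and 18.9, 30.9 and 65.1 CPM at 10 pg. This scarcer factor was read in every library, in overlapping ranges.

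Scarcer identity genes were read in some cultures and not in others. Nr2e1, the orphan receptor TLX that NSCs need for self-renewal, had 12.7, 14.5 and 21.1 CPM at 1 ng and 28.3, 0 and 31.1 CPM at 10 pg: F8 lost it while F5 and M9 lay above their 1 ng values. Emx2, a homeobox factor of the hippocampus, had 6.98, 9.11 and 7.199 CPM at 1 ng and 13.7, 7.04 and 0 CPM at 10 pg, so M9 lost it. Hes5, a Notch target, had 1.79, 2.68 and 16.9 CPM at 1 ng and 0, 4.87 and 40.2 CPM at 10 pg, and M9 was highest at both inputs. Sox2, a core factor of NSCs, had 7.48, 7.32 and 8.62 CPM at 1 ng and 11.96, 3.304 and 0.162 CPM at 10 pg, with M9 at 2 reads. Hes1, another Notch target, had 3.99, 5 and 9.04 CPM at 1 ng and 0.415, 1.39 and 1.05 CPM at 10 pg, and each 10 pg value lay below each 1 ng value. At 100 pg Sox2 stood at 33.5, 35.7 and 17.1 CPM, above both other inputs. Hes1 did too, at 23.9, 24.8 and 36.6 CPM. Sox2 lies inside the noncoding gene Sox2ot on the same strand, and reads of both cannot always be told apart. Msi1, an RNA-binding protein of progenitors, had 2.19, 1.07 and 2.01 CPM at 1 ng and no read at 10 pg. All 3 H2O2 libraries of 10 pg had reads of it, at 0.645, 0.0888 and 0.255 CPM. In those libraries 3 reads were worth 0.276, 0.266 and 0.255 CPM, so the F8 and M9 values did not exceed this limit.

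**Figure D3:**
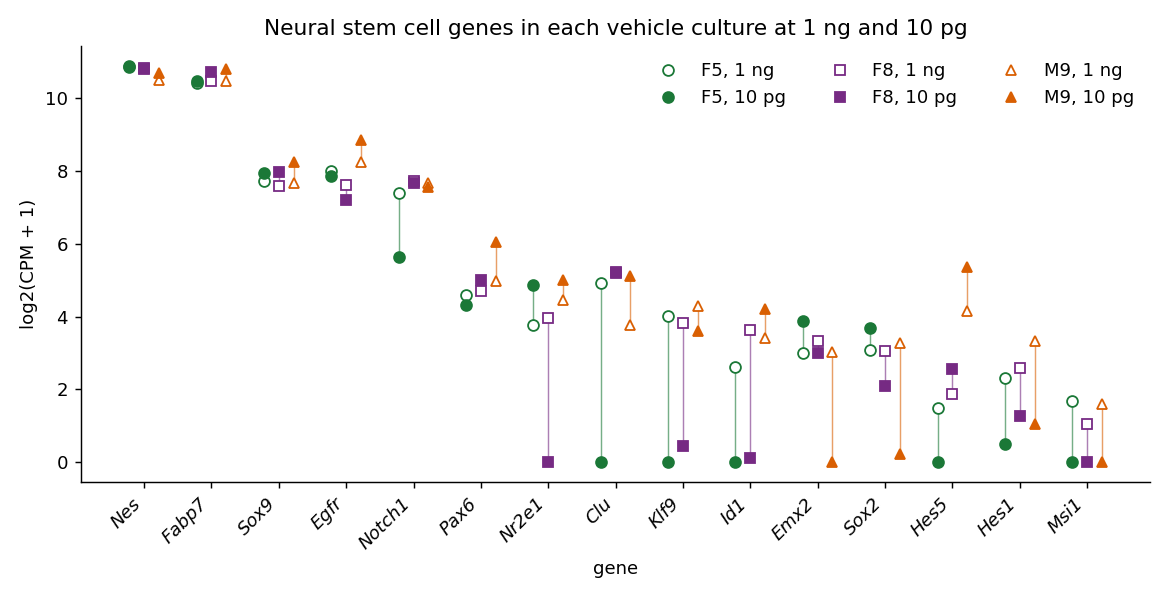
Level of 15 NSC genes (x axis) in log2(CPM + 1) (y axis) in each vehicle culture, open symbols for 1 ng and filled for 10 pg, joined within a culture. Nes, Fabp7 and Sox9 stay close, while Nr2e1, Clu, Id1, Emx2 and Hes5 are at 0 in 1 culture and near or above the 1 ng level in another.

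Quiescence genes followed the same pattern. Cpe, a peptide processing enzyme, had 1531, 1533 and 1151 CPM at 1 ng and 1506, 1404 and 1195 CPM at 10 pg. Aldoc, a glycolytic enzyme of astrocytes and resting NSCs, had 355, 401 and 682 CPM at 1 ng and 414, 328 and 619 CPM at 10 pg, with M9 highest at both inputs. Sparcl1, a matrix protein, had 197, 336 and 121 CPM at 1 ng and 217, 246 and 113 CPM at 10 pg, with F8 highest and M9 lowest at both. The cultures are bulk samples, in which fewer cells of a type and less RNA per cell cannot be told apart. Id3, an inhibitor of helix-loop-helix factors that answers BMP, had 157, 266 and 211 CPM at 1 ng and 201, 292 and 262 CPM at 10 pg. Clu, a secreted chaperone, had 29.6, 36.3 and 12.7 CPM at 1 ng and 0, 35.8 and 33.7 CPM at 10 pg, so F5 lost it and the other cultures did not. Id1, a relative of Id3, had 5.08, 11.3 and 9.71 CPM at 1 ng and 0, 0.0869 and 17.4 CPM at 10 pg, and M9 alone had more than 1 read. Klf9, a factor of resting NSCs, had 15.1, 13.1 and 18.7 CPM at 1 ng and 0, 0.348 and 11.2 CPM at 10 pg, again with most reads in M9. Ndrg2, a gene of astrocytes, was at or near 0 in F5 and F8 and above its 1 ng level in M9, with 3.79, 3.66 and 14.8 CPM at 1 ng and 0.0831, 0 and 23.1 CPM at 10 pg. Bmpr1a, a BMP receptor that passes this signal on, had 22.5, 15.98 and 15.2 CPM at 1 ng and 0.747, 4.09 and 18.1 CPM at 10 pg. At 100 pg Bmpr1a stood at 84.03, 80.6 and 68.4 CPM, above both other inputs.

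Genes of neuronal differentiation were scarce already at 1 ng. Of the 25 genes on the list, 18 to 20 had a read per 1 ng library and 9 or 10 per 10 pg library. The abundant ones were kept: Map2, a microtubule protein of neurons, had 803, 709 and 656 CPM at 1 ng and 659, 590.0 and 515 CPM at 10 pg. Sox11, a factor of young neurons, had 146, 132 and 182 CPM at 1 ng and 81.97, 170.5 and 220.4 CPM at 10 pg, in overlapping ranges. Eomes, the factor of intermediate progenitors, had 1.79, 4.197 and 2.76 CPM at 1 ng and no read at 10 pg. Tubb3, a neuronal tubulin, had 11.1, 8.39 and 5.52 CPM at 1 ng and 18.02, 0.0869 and 0.0809 CPM at 10 pg, so only F5 had more than 1 read. Dcx, a marker of young neurons, had 0.498, 0.268 and 0.502 CPM at 1 ng and no read at 10 pg.

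Most genes without a read in all 3 vehicle libraries had one in some H2O2 library of the same input. The 10 genes with the highest lowest 1 ng value that had no read in any vehicle library of 10 pg were Sgsm1, Urb1, Ice1, Cbx2, Phka2, Cep97, Zfp28, Cep135, Slc12a7 and Zfp324. Sgsm1, a regulator of small G proteins (chromosome 5, 113243220 to 113310786, minus strand, GRCm38), had the highest mean, with 36.3, 32.3 and 13.6 CPM at 1 ng, which made it at least 109-fold lower at 10 pg against a floor of 3 reads per library (log2 difference −4.71, SE 0.59, adjusted p = 0.08404 by limma). Cbx2, a Polycomb subunit, had 16.5, 17.5 and 27.2 CPM and was at least 81.4-fold lower (log2 difference −4.39, SE 0.51, adjusted p = 0.08404 by limma). Fitted log2 differences of genes at 0 depend on the pseudocount and are no bounds. Urb1, a factor of ribosome assembly, had 21.7, 30.2 and 19.3 CPM. Cep97, a protein of the centriole, had 14.3, 16.97 and 19.7 CPM, and Cep135, another, 17.3, 16.3 and 14.6 CPM. In the H2O2 cultures at 10 pg, however, Sgsm1 had 54.3, 37.5 and 36.4 CPM, and only Zfp324 of the 10 genes was again at 0 in all 3. Cbx2 was at 0.0922, 0 and 0 CPM there. Of 13398 genes with at least 1 CPM in all 1 ng libraries of both treatments, 493 had no read in the 3 vehicle libraries and 485 none in the 3 H2O2 libraries of 10 pg. They shared 156 genes, 31.6% of the former and 32.2% of the latter, where 3.62% of all 13398 genes were on the H2O2 list.

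No single gene passed the paired test between inputs. By limma with the culture as a block, 0 of 14561 genes were lower and 0 higher at 10 pg at an adjusted p under 0.05 (0% each), and the smallest adjusted p was 0.0840. At an unadjusted p under 0.05, 1759 genes (12.1%) were lower and 242 (1.66%) higher. edgeR on the recovered reads called 0 genes, with 876 lower and 244 higher at an unadjusted p under 0.05, and DESeq2 called 2460 lower (16.9%) and 398 higher (2.73%). Without the culture block, limma called 1014 lower and 26 higher. The median log2 difference over all tested genes was −0.25, and classes are read against it. All 3 cultures were lower at 10 pg for 22.5% of all tested genes, for 29.1% of 654 transcription factors and for 38.4% of 258 receptors. The median log2 difference was −0.69 for transcription factors, −0.91 for receptors and −0.08 for NSC markers.

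The spread between the libraries of the 3 cultures was wider at 10 pg at every level. The median coefficient of variation over 3 cultures was 27.6% at 1 ng and 135% at 10 pg for 3212 genes from 1 to under 5 CPM (mean of both inputs). It was 15.03% and 93.4% from 5 to under 20 CPM, 10.2% and 60.9% from 20 to under 50 CPM and 8.08% and 40.3% from 50 to under 100 CPM. Even for 2484 genes at 100 CPM or more it was 6.22% and 24.3%. At 100 pg it was 44.04% in the lowest of these bins and 9.66% in the highest.

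Some abundant genes were nevertheless low at 10 pg in every culture. Of 4804 genes with a mean of at least 50 CPM at 1 ng, 120 (2.5%) were at least 2-fold lower in all 3 cultures and 1, Cstf1, at least 2-fold higher (0.0208%). This set was formed after its values were seen, so its vehicle values are a description. Rnf187, a ubiquitin ligase (chromosome 11, 58932288 to 58938916, minus strand, GRCm38), had the lowest mean difference, with 382, 369 and 389.9 CPM at 1 ng and 14.1, 1.74 and 28.4 CPM at 10 pg (log2 difference −5.16, SE 0.72, adjusted p = 0.08404 by limma). Dact1, a modulator of Wnt signalling, had 123.9, 95.99 and 105 CPM at 1 ng and 8.804, 12.8 and 1.21 CPM at 10 pg (log2 difference −4.02, SE 0.68, adjusted p = 0.0848 by limma). Gldc, the glycine decarboxylase, had 81.4, 56.9 and 121 CPM at 1 ng and 7.81, 0.435 and 36.97 CPM at 10 pg (log2 difference −3.41, SE 0.82, adjusted p = 0.161 by limma). Cdr2l was at 287, 303 and 243 CPM at 1 ng and 19.4, 23.1 and 53.5 CPM at 10 pg. In these 4 genes no 10 pg value reached any 1 ng value of the same gene. Fzd9, described above, was in the set, as were the receptors Robo1, Gas1, Itga6, Plxnb1 and Ptprs (6 of 69 receptors at 50 CPM or more) and the factors Rfx7, Clock and Npas3 (3 of 119). None of the 78 ribosomal protein, 46 mitosis or 25 NSC marker genes of that level was in it. With 2.5% of all 4804 genes in the set, few or none would be expected in classes of this size. Their absence therefore does not set these classes apart.

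The H2O2 libraries, which had no part in forming the set, gave the same direction. There 100 of the 120 genes (83.3%) were lower at 10 pg than at 1 ng in all 3 cultures, against 18.5% of all 4804 genes. The median log2 difference of the set was −1.83 in H2O2 cultures, and that of all 4804 genes −0.08. Rnf187 had 328, 397 and 324 CPM at 1 ng and 30.5, 16.8 and 23.1 CPM at 10 pg there. Dact1 had 51.6, 94.9 and 81.9 CPM at 1 ng and 1.11, 0 and 14.3 CPM at 10 pg. Forming the same kind of set from the H2O2 pairs gave 115 of 4288 genes with at least 50 CPM under both treatments (2.68%). It shared 62 genes with the 108 vehicle genes among them, 57.4% of the vehicle set and 53.9% of the H2O2 set. At 100 pg the median log2 difference of the set from 1 ng was −0.06, against −0.03 over all 4804 genes. Of the 7 genes that were at least 2-fold lower in all 3 cultures at 100 pg, however, 6 were in the set. Rnf187 had 421, 379 and 406 CPM at 100 pg.

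**Figure D4:**
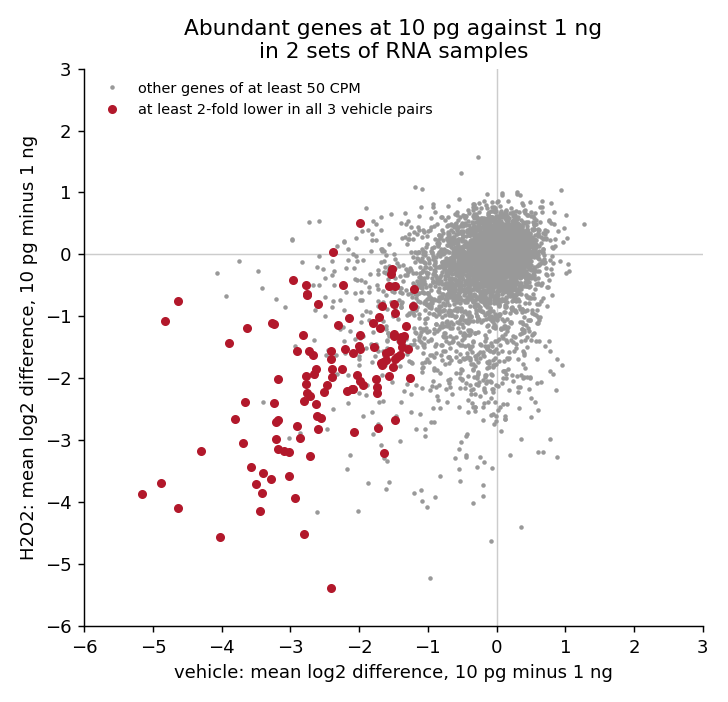
Mean log2 difference between 10 pg and 1 ng, on the log2(CPM + 1) scale, over 3 vehicle cultures (x axis) and 3 H2O2 cultures (y axis) for 4804 genes of at least 50 CPM at 1 ng. The 120 genes at least 2-fold lower in every vehicle pair (red) lie mostly below 0 on the y axis too, with 100 of them lower in all 3 H2O2 pairs.

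Long transcripts were measured lower at 10 pg. Among genes of at least 50 CPM at 1 ng, the median log2 difference per culture was 0.14 ± 0.0224 (SD, n = 3) for the 218 genes with transcripts of up to 1000 nt. It was 0.12 ± 0.0143 from 1000 to 2000 nt, −0.11 ± 0.00722 from 4000 to 6000 nt, −0.30 ± 0.0602 from 6000 to 8000 nt and −0.35 ± 0.141 for the 291 genes above 8000 nt. H2O2 cultures gave 0.19 ± 0.0592 for the shortest and −0.39 ± 0.0494 for the longest. The 100 pg libraries gave 0.12 ± 0.0233 and −0.30 ± 0.0111, against the same 1 ng libraries. The 120 genes had a median transcript of 4973 nt (115 with a length), all 4804 of 3561 nt (4712 with one). GC content was 52.1% and 49.5%. Among protein-coding genes from 5 to under 20 CPM at 1 ng, 21.3% ± 1.73 of the tertile with the shortest transcripts (up to 2723 nt), 30.6% ± 0.955 of the middle tertile and 30.8% ± 2.65 of the tertile with the longest (above 4388 nt) had no read at 10 pg. The longest tertile lay above the middle one in F5 and M9 and below it in F8.

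**Figure D5:**
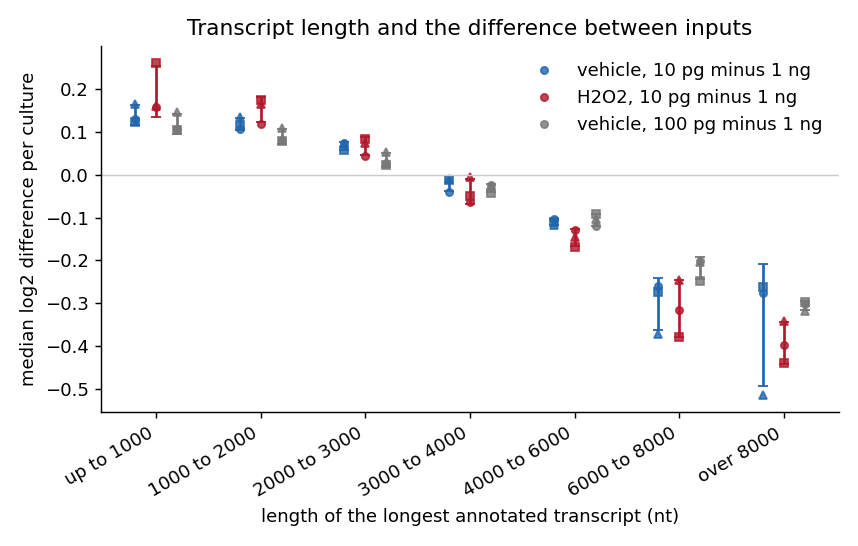
Median log2 difference between inputs per culture (y axis) by length of the longest annotated transcript (x axis, nt) for genes of at least 50 CPM at 1 ng. Points are the 3 cultures and bars the mean ± SD, and the medians go from 0.14 in the shortest to −0.35 in the longest vehicle transcripts at 10 pg, and take the same course in H2O2 cultures and at 100 pg.

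The authors' own filter also kept smaller shares of transcription factors and receptors than of all genes. CLEAR, a method that keeps genes whose reads cover the transcript evenly enough to be quantified, was applied to each input over vehicle and H2O2 libraries together. It left 13936 genes of the 1 ng table, 12537 genes of the 100 pg table and 6616 genes of the 10 pg table. Of the 13896 genes with a unique symbol kept at 1 ng, 47.5% were also kept at 10 pg. For transcription factors it was 173 of 674 (25.7%), and for receptors 87 of 283 (30.7%). For NSC markers it was 30 of 46 (65.2%). Mitosis genes, few of which lacked a read, were kept for 24 of 56 (42.9%), below the share over all genes. All 80 ribosomal protein genes were kept at both inputs.

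Differences between the cultures were partly kept at 10 pg. Of genes that reached at least 50 CPM and differed at least 2-fold between M9 and the mean of F5 and F8 at 1 ng, 9 of 10 that were higher in M9 and 30 of 32 that were lower kept that direction at 10 pg. With genes of at least 10 CPM it was 37 of 49 and 71 of 99. As M9 is a single culture of the male line, these are values without a test. Xist, which silences an X chromosome in female cells, had 47.7, 55.6 and 0.0837 CPM at 1 ng and 28.9, 95.02 and 0 CPM at 10 pg. Ddx3y, on the Y chromosome, had 0, 0.268 and 57.7 CPM at 1 ng and 0, 0 and 103 CPM at 10 pg. Kdm5d, also Y-linked, had 0, 0.0893 and 21.8 CPM at 1 ng and 0, 0 and 33.3 CPM at 10 pg. Uty, a Y-linked demethylase gene, had 0, 0 and 26.6 CPM at 1 ng and 0, 0 and 0 CPM at 10 pg, so it had no read in this 10 pg library of the male line. In H2O2 cultures M9 had 29.3 CPM of Uty at 1 ng and 20.8 CPM at 10 pg.

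Few genes went the other way. Per culture 416, 404 and 388 genes had no read at 1 ng and a read at 10 pg, and 112, 116 and 87 of them reached 1 CPM. Only 6 genes had no read in any 1 ng library and a read in every 10 pg library, Gm8756, Gm11575, Gm5883, Pgam1-ps1, Gm5863 and Gm9431. None exceeded 0.404 CPM. All 6 are annotated as processed pseudogenes, whose reads cannot always be told apart from those of near-identical copies, so these values are uncertain.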

How the data were processed

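Cultured NSCs were profiled by SMART-Seq and Illumina paired-end sequencing. The authors trimmed reads, aligned them to the mouse genome with HISAT2 2.0.6, counted them per gene without strand with featureCounts and, as the values show, divided the counts by 1 size factor per library in each input's table. The submitters' notes also name CASAVA 1.8.2 and GRCh38, a human build, although the genes are mouse. The deposited values are thus a signal in normalized counts per gene, not raw counts, and each input was normalized on its own. In every library 100% of values were whole multiples of the smallest value above 0 (within 1e-08), so whole reads were recovered, and values were rescaled to CPM (reads per 1000000 reads in genes), which removes the size factors. Tables held 50600 genes. Columns were matched to groups by their headers, not to single sample titles, and 0 columns were left without a group. Symbols, coordinates and transcript lengths come from GENCODE M21 (GRCm38), a release other than the authors'.

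The main test was limma 3.58.1 (R 4.3.3; lmFit, eBayes with a mean trend) on log2(CPM + 1), 2-sided, with the culture as a block, over genes with a mean of at least 1 CPM in the 6 libraries, with Benjamini-Hochberg adjustment and a threshold of 0.05. This scale understates differences of scarce genes. The culture is a block because both inputs are dilutions of 1 RNA sample. Deviations from the group means correlated at 0.0774 (F5), 0.0832 (F8) and 0.136 (M9) within a culture and at most at 0.008 between cultures. edgeR 4.0.16 (quasi-likelihood) and DESeq2 1.42.0 were run on the recovered reads. Tested on simulated data, the fit recovered the changed genes with their sign and called more unchanged genes than the threshold allows. That outcome does not give the power of the test in the real libraries. There the same fit called 0 of 14561 genes lower and 0 higher. Even Rnf187, at a log2 difference of −5.16, had an adjusted p of 0.08404 by limma. A gene counted as expressed from 1 CPM in the 1 ng library of a culture and as without a read at 0 reads in its 10 pg library. Classes were defined by patterns of gene symbols, so they are approximate. Genes were named by a rule: those highest at 1 ng and at 0 in all 10 pg libraries, those at 0 at 1 ng only, the 2 most abundant and 2 most abundant missing members of each family, and the marker lists; the rule's part on genes past the threshold named none. The set of abundant low genes and the genes high at 100 pg were chosen after values were seen. Classes, lists and the comparison were chosen with earlier results of these data known. Replicates are separate cultures, of which F5 and F8 share a line. With the culture as a block, p-values measure how the difference between inputs varies from culture to culture. Each culture had 1 library per input, so that spread also holds the dilution and amplification of each library, which cannot be told apart from the culture. Date-like symbols were tested but not named. Some genes of the lists and of the naming rule are not reported here.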

Additional observations from a re-analysis of the deposited data

How the results depend on the processing

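Shares without a read are given in the order all genes, transcription factors, receptors and NSC markers. They depended on the level asked for at 1 ng: 22.7%, 30.2%, 39.4% and 10.8% from 0.5 CPM and 8.74%, 16.7%, 13.9% and 4.26% from 5 CPM. Per kilobase they were 14.4%, 19.5%, 14.7% and 5.46%. Counting values under 0.1 CPM as absent gave 19.9%, 30.97%, 35.2% and 11.1%. With genes chosen by the 100 pg library they were 18.04%, 26.05%, 30.9% and 10.2%, and with reads thinned to 10032628 per library 17.6%, 27.6%, 31.3% and 9.6%. Leaving out each culture in turn gave 17.2 to 17.5%, 27.02 to 27.3%, 30.4 to 32.7% and 7.88 to 11.1%. Receptors lay above transcription factors in the main setting and at 0.5 CPM, but below them from 5 CPM and per kilobase.

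The test across genes called 0 lower and 0 higher with the culture block, as it did with a pseudocount of 5 CPM, without a filter, with at least 5 CPM, without each culture in turn, with TMM or median-of-ratios scaling and with edgeR. Without the replicate block it called 1014 lower and 26 higher, with a pseudocount of 0.1 CPM 564 lower and 1 higher, and DESeq2 called 2460 and 398. The cause of these differences was not tested. Scaling moved the median difference of all genes from −0.25 (CPM) to −0.24 (TMM) and −0.22 (median of ratios). The log2 differences given for Sgsm1, Cbx2, Rnf187, Dact1, Gldc, Fzd9 and Foxm1 stayed below 0 under all 12 alternatives. For Fzd9 they ranged from −3.65 to −2.52, with an adjusted p from 3.1e-09 (DESeq2) to 0.573 (edgeR). Read totals were alike at both inputs, and the 3 cultures, of which F5 and F8 share a line, limit the precision of every share.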

Other observations

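Noncoding genes showed no single pattern at 10 pg. Of long intergenic RNA genes with at least 1 CPM at 1 ng, 35.5% ± 1.81 (SD, n = 3) had no read, and of antisense genes 18.9% ± 2.81. Their median 1 ng levels were 5.51 and 4.59 CPM. At like CPM both lacked reads less often than protein-coding genes. Their median longest transcripts were shorter, 2090 and 1230.5 nt against 3522 nt, and shares per kilobase were not computed for them. Counting was without strand, so reads of antisense genes cannot always be told apart from those of overlapping genes. From 1 to under 5 CPM the shares were 54.4% ± 2.38, 28.6% ± 3.08 and, for protein-coding genes, 61.98% ± 1.01. From 5 to under 20 CPM they were 16.2% ± 3.31, 6.95% ± 4.44 and 27.5% ± 1.69. Of processed pseudogenes, which are copies of spliced mRNAs and whose reads cannot always be told apart from those of their parent genes, 3.03% ± 0.754 had none, although their median 1 ng level was 5.64 CPM.

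The 100 pg libraries did not lie between the other inputs for every gene. Of 11495 genes with a mean of at least 5 CPM over the 9 vehicle libraries, 127 (1.105%) were at least 2-fold higher in all 3 libraries of 100 pg than in every library of 1 ng and of 10 pg, and 0 were at least 2-fold lower. Olig2, a factor of the oligodendrocyte lineage, had 30.4, 31.4 and 31.1 CPM at 1 ng, 1192, 1240.2 and 772 CPM at 100 pg and 27.99, 37.99 and 43.3 CPM at 10 pg. Igfbp3, a secreted binding protein of insulin-like growth factors, had 264, 242 and 242 CPM, 2476, 2425 and 1508 CPM and 189, 189 and 100.2 CPM. Lamp1, a lysosomal membrane protein, had 117, 90.3 and 117 CPM, 846, 803 and 662 CPM and 20.6, 42.4 and 50.8 CPM. In the H2O2 libraries 140 of the 11495 genes met the same criterion (1.22%) and 97 were common to both, 76.4% of the vehicle set and 69.3% of the H2O2 set. Olig2 had 29.6, 33.6 and 31.1 CPM, 1215, 1209 and 1026 CPM and 11.9, 32.7 and 41.2 CPM there. The set was formed after its values were seen, and 6 of the 127 genes are also among the 120 that were low at 10 pg. Gas1 is 1 of these 6, with 58.9, 47.9 and 63.3 CPM at 1 ng and 326, 317 and 247 CPM at 100 pg.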
